A study of Homo sapiens with 2 samples.

Results

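The neurotensin and somatostatin receptors were examined in a table of gene counts with 17249 rows. The list held 6 receptor genes, NTSR1, NTSR2, SSTR1, SSTR2, SSTR3 and SSTR5, and 4 of them had a row: NTSR1, SSTR1, SSTR2 and SSTR5. NTSR2 and SSTR3 were not analysed here. The genes were picked because NTSR1 and SSTR5 stood far apart between the libraries, so their differences are given as descriptions and support nothing further. The table came from poly(A)-selected RNA of cells labelled DU145, a human prostate cancer line of epithelial origin. There were 2 groups of 1 library each. One library carried the label si-P53RRA, for cells given 200 pmol of small interfering RNA against the long noncoding RNA P53RRA by lipid transfection, with new medium after 4 h and harvest 48 h later. The other, called control here, was labelled with the cell line alone, and its data column is named si-NC, for a negative-control RNA. Both were grown in the same serum-containing medium.

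Receptors of both families are G protein-coupled receptors in the cell membrane. Neurotensin, a gut and brain peptide, acts mainly through NTSR1, its high-affinity receptor, which couples to Gq proteins and phospholipase C and is known for promoting growth of several tumour types, among them prostate cancer. Somatostatin and the related peptide cortistatin act through the SSTR receptors, which couple to Gi proteins, lower cyclic AMP and restrain hormone secretion. SSTR2 and SSTR5 are the best known targets of somatostatin analogue drugs.

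The control library held 16030207 counts and the si-P53RRA library 11942362. With 1 library per group no test between conditions was possible. A value in parentheses after a count, fold or share is an exact 95% interval that covers counting error only. "Higher" and "lower" refer to the si-P53RRA library relative to the control. LINC00472, the gene of P53RRA, had 105 and 6 counts in the control and si-P53RRA libraries. CPM are counts scaled to a common library size, and genes were counted as 2-fold apart after 0.5 CPM was added to each value. Differences of at least 2-fold were common. Of the 13532 genes with 1 or more CPM in at least 1 of the libraries, 42.9% reached that size, 19.7% higher and 23.2% lower.

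The labelled cell type was set against marker genes in each library. EPCAM, an epithelial adhesion molecule gene, had 0 counts in the control and 50 in the si-P53RRA library, and CDH1, the E-cadherin gene, 2 and 7. Here CDH1, EPCAM, KRT8, KRT18, DCN and VIM are named after their values were seen. The 12 epithelial markers, all with a row, summed to 399.5 CPM in the control and 2059.8 CPM in the si-P53RRA library; of the 10 with at least 1 CPM, 8 were at least 2-fold higher and none lower. The 10 mesenchymal markers summed to 17966 CPM and 1613 CPM, with 9 at least 2-fold lower, and THY1, DCN and TGFBI were at 0 in the si-P53RRA library. The keratin genes KRT8, with 649 and 2062 counts, and KRT18, with 5870 and 8105, were present in both. EPCAM at 0 and the high mesenchymal sum went against the epithelial label in the control library. In the si-P53RRA library the markers were mixed. CDH1 was at 0.614 CPM and EPCAM at 4.38 CPM, while the mesenchymal gene VIM was at 1291 CPM. Most of the epithelial sum there came from KRT18, KRT19 and CLDN4, at 710, 618 and 415 CPM. Whether both libraries came from the same cell line was not tested, and with 1 library per group a difference between cell populations cannot be told apart from an effect of the small interfering RNA. These shifts move with every receptor difference below, and their part in those differences was not tested. In bulk RNA, fewer cells of a type and less RNA per cell cannot be told apart.

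The promoters of the 3 receptor genes with at least 1 CPM are shown because these genes differed between the libraries in opposite directions and because their start regions are unlike. The sequences are RefSeq's on GRCh38.p14, the 250 bases before each start, 5′ to 3′ on the plus strand; that of NTSR1 is chr20:62708586-62708835, that of SSTR1 chr14:38207654-38207903 and that of SSTR5 chr16:1078576-1078825. In NTSR1 and SSTR1 capitals mark CG dinucleotides, the sites of DNA methylation; in SSTR5 they mark the 94 bases that lie between the start of its antisense gene SSTR5-AS1 and its own start.
NTSR1: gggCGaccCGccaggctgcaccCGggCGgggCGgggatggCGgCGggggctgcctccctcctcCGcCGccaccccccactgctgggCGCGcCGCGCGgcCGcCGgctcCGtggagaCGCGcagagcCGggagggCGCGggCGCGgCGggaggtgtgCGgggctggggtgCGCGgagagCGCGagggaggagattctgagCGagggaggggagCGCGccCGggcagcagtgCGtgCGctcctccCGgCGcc
SSTR1: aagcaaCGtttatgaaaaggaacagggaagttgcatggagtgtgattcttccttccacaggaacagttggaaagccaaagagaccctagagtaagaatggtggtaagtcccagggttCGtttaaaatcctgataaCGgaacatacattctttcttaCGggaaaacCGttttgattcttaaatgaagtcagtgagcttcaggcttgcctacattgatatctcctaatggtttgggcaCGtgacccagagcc
SSTR5: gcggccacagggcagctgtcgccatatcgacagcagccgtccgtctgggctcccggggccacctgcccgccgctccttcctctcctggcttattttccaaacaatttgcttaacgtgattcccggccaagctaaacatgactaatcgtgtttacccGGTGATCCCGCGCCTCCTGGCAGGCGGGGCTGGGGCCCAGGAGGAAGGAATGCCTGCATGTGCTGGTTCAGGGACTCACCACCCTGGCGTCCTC

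The printed NTSR1 stretch held 38 CG dinucleotides and that of SSTR1 held 6. Over the whole 300-base windows of the RefSeq table, which reach 50 bases past the start, NTSR1 had 45 CG dinucleotides and a GC content of 81.7%, more CG than 96.5% of 35116 windows. SSTR5 had 18 CG dinucleotides, more than 55.5% of windows, and SSTR1 had 7, more than 36.8%. SSTR2 had 27, fewer than NTSR1 and more than the other 2. The median over all windows was 14. The GC box GGGCGG, searched on both strands and itself holding a CG dinucleotide, matched 2 times in NTSR1, 1 time in SSTR2 and at no place in SSTR1 or SSTR5; 45.0% of windows held it. The TATA box TATAAA matched in none of these 4 windows and in 11.5% of all. No methylation or binding was measured, so these are properties of the reference sequence.

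NTSR1 had 3 counts (0.619 to 8.77) in the control library and 4340 counts (4212 to 4471) in the si-P53RRA library. Scaled for library size these were 0.179 CPM and 380.4 CPM. The gene was near the detection floor in one library and abundant in the other, a ratio of 2128 (728 to 10322). The log2 change, computed with 0.5 CPM added to each value, was 9.13, the fourth largest increase among 13532 genes. By CPM per kilobase of the longest transcript, NTSR1 ranked 792 of 15954 genes in the si-P53RRA library and 14084 in the control. None of the 4083 50-base words of that transcript occurred in a transcript of another gene, on either strand.

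The non-GPCR receptors of neurotensin differed from NTSR1 and from each other. SORT1, sortilin, a single-pass sorting receptor also called NTSR3, had 806 counts in the control against 19 in the other, 28.8-fold lower (18.3 to 48.2). SORL1, a sorting receptor of the same family that also binds neurotensin, had 92 and 400 counts, 6.39-fold higher (5.09 to 8.11). The library with high NTSR1 was therefore the one with low SORT1 and higher SORL1. NTS, the gene of neurotensin itself, had 0 counts in the control, which allows up to 3.69 counts, and 38 in the other, at least 18.6-fold higher against a floor of 3 counts. Ligand and high-affinity receptor were both more abundant in the same library, but NTS reached only 3.33 CPM.

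SSTR5 had 0 counts in the control library (up to 3.69) and 2286 counts (2193 to 2382) in the si-P53RRA library, or 200.4 CPM. The gene was at least 1121-fold higher against the floor of 3 counts, with a log2 change of 8.65, the sixth largest increase. Of the 1207 genes at 0 in the control library, 2 had as many si-P53RRA counts as SSTR5 or more, SSTR5 included. None of its 1313 50-base words was shared with another gene's transcript.

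SSTR1 went the other way. It had 731 counts (679 to 786) in the control library, 43.6 CPM, and 0 (up to 3.69) in the other, at least 166-fold less, with a log2 change of -6.46. This was less rare in the table: 63 genes, SSTR1 included, were at 0 in the si-P53RRA library with at least as many control counts. SSTR2 had 5 counts and 1 count, below 1 CPM in both libraries. The ratio of control to si-P53RRA for SSTR2 was 3.40 (0.380 to 161), an interval that spans 1, so no difference was detectable at this depth. Part of its transcript, 4.62% of 50-base words, also occurs in transcripts of 202 other genes, so those few reads are of uncertain origin.

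The libraries therefore held a different somatostatin receptor each. Of the 736 counts on SSTR1, SSTR2 and SSTR5 in the control library, SSTR1 took 99.3% (98.4 to 99.8) and SSTR5 had 0. Of 2287 such counts in the si-P53RRA library, SSTR5 took 99.96% (99.76 to 100.0) and SSTR1 took 0% (up to 0.161). These shares are of counts and are not corrected for transcript length. All 3 receptor genes that reached 1 CPM were at least 2-fold apart, 2 higher and 1 lower, against 42.9% of all genes; since they were chosen on this contrast, nothing is read from that share.

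**Figure D1:**
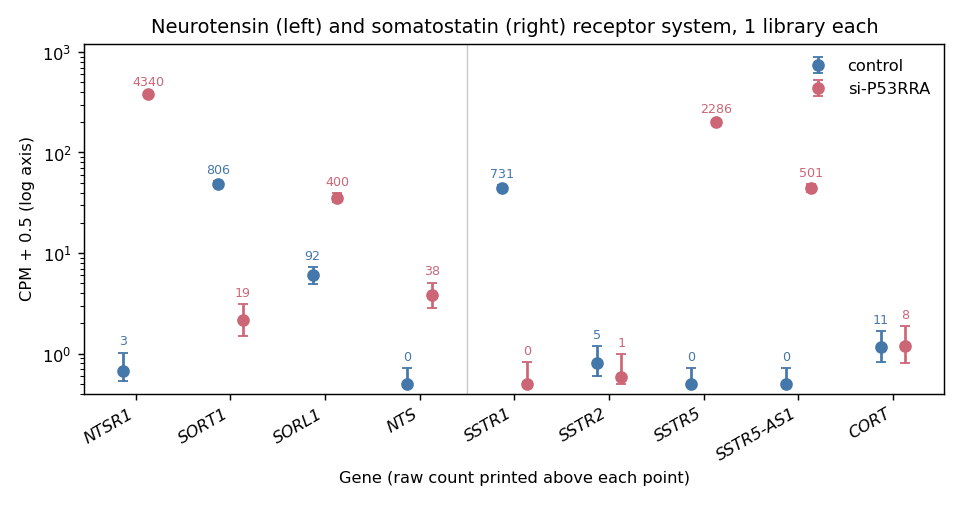
Level of each gene of the neurotensin system (left) and the somatostatin system (right) as CPM + 0.5 on a log axis, in the control library (blue) and the si-P53RRA library (red); points are 1 library each, bars are exact 95% Poisson intervals and the numbers are raw counts. NTSR1 and SSTR5 are at 3 and 0 counts in the control and at 4340 and 2286 in the other library, while SSTR1 and SORT1 run from 731 and 806 counts to 0 and 19.

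Levels of different genes were compared per kilobase of transcript. In the control library the order was SSTR1 at 10.1 CPM per kilobase, then NTSR1 at 0.0433 and SSTR2 at 0.0388, with SSTR5 at 0. NTSR1 and SSTR2, with 3 and 5 counts, had overlapping counting intervals there. In the si-P53RRA library the value was 147 CPM per kilobase for SSTR5 and 92.1 for NTSR1, followed by 0.0114 for SSTR2 and 0 for SSTR1. The order of the first pair rests on the length taken for SSTR5, whose longest GENCODE transcript has 1362 bases. From the RefSeq start of SSTR5 to the end of the gene there are 2629 bases, a span of genome and not a transcript length. With that span the level of SSTR5 was 76.2, below NTSR1.

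**Figure D2:**
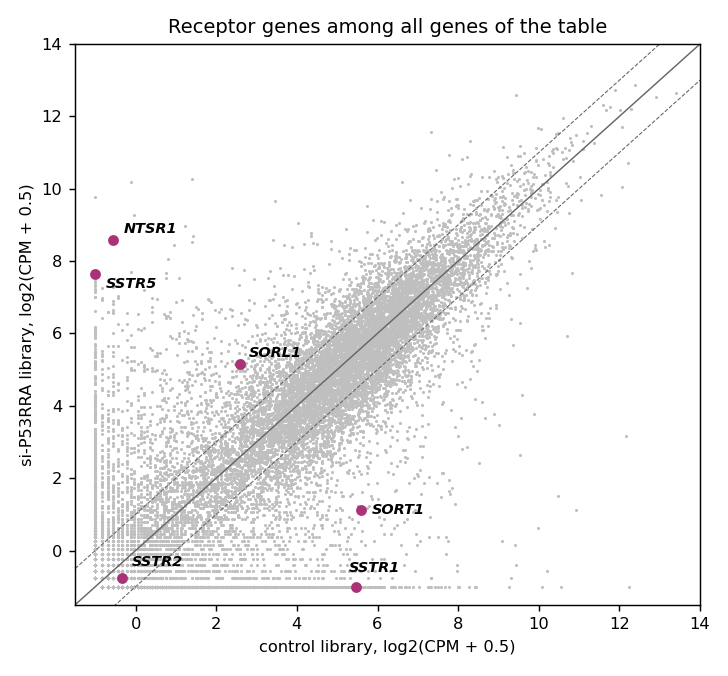
Every gene of the table as log2(CPM + 0.5) in the control library (x) and the si-P53RRA library (y); the solid line is equality and the dashed lines are 2-fold apart, and purple points are the receptors with a row plus SORT1 and SORL1. NTSR1 and SSTR5 lie in the upper left corner with log2 changes of 9.13 and 8.65, SSTR1 lies on the lower edge at -6.46, and many other genes lie beyond the dashed lines.

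Cortistatin, CORT, the only somatostatin receptor ligand gene with a row, had 11 and 8 counts, a ratio of 1.07 (0.374 to 2.92). The ligand gene SST and the receptor gene SSTR4 were not analysed here. CORT was thus under 1 CPM in both libraries, whichever receptor was present.

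SSTR5-AS1, a noncoding RNA gene that runs away from SSTR5 on the opposite strand, had 0 counts in the control against 501, at least 246-fold higher. Its RefSeq start lies 95 bases from that of SSTR5, and their promoter windows share 194 bases, which include the capitals printed above. In GENCODE 29 the exons of the pair share 0 bases, although RefSeq has SSTR5 transcripts that begin further upstream, inside SSTR5-AS1. No source used here says whether the libraries kept the strand, so reads from any overlap cannot be assigned. Of the 50-base words of SSTR5-AS1, 28.0% occur in transcripts of 4 other genes, so its count is less certain than that of SSTR5.

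Genes around SSTR5 on chromosome 16 were also higher. Of the 10 nearest genes of the table in chromosome order, 5 on each side, 8 had at least 1 CPM; 6 were higher and none lower by 2-fold or more, and the median log2 change was 2.62, against 19.7% of all genes higher and a median of -0.06. CACNA1H, a T-type calcium channel gene, had 0 and 1661 counts, at least 814-fold higher. SOX8, a transcription factor gene, had 0 and 69 counts, at least 33.8-fold higher. LMF1, a lipase maturation factor gene, was 7.33-fold higher (5.42 to 10.1), and BAIAP3, known for a role in dense-core vesicle traffic, 8.31-fold higher (4.93 to 14.8). TPSG1, a tryptase gene, had 0 and 12 counts and C1QTNF8 had 0 and 9. RPUSD1, further out, differed less and was 1.74-fold higher (1.64 to 1.85). LMF1-AS1 had 0 counts and 1 count.

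The neighbours of NTSR1 on chromosome 20 differed less. Of 10 genes, 7 had at least 1 CPM, 2 were higher and none lower by 2-fold or more, and the median log2 change was 0.58. SLCO4A1, an organic anion transporter gene, had 206 and 3987 counts, 28.5-fold higher (24.7 to 32.9), and the ribosomal protein gene RPS21 was 2.40-fold higher (2.34 to 2.46). Beyond NTSR1 on the other side, MRGBP was 1.11-fold higher (1.01 to 1.21), and the opioid growth factor receptor OGFR had 1627 and 1661 counts and a log2 change of 0.58. The collagen gene COL9A3 had 43 counts in each library, which after scaling for library size was a log2 change of 0.48. DPH3P1, a pseudogene, had 70 and 98 counts and a log2 change of 0.96, and CABLES2 had 686 and 408 and a log2 change of -0.19. SLCO4A1-AS1, OGFR-AS1 and RBBP8NL had at most 6 counts in either library.

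Around SSTR1 on chromosome 14, examined after the values of SSTR1 were seen, the neighbours went against SSTR1. Of 8 genes with at least 1 CPM, 7 were higher and none lower by 2-fold or more, and the median log2 change was 2.24. All 8 lie far from SSTR1, at 612 to 1036 kb, while the neighbours of SSTR5 lie at up to 290 kb. FOXA1, a pioneer transcription factor of prostate and other epithelia, had 91 and 1842 counts, 29.8-fold higher (24.1 to 37.2). It is next to SSTR1 in the order of measured genes but lies 612 kb away. MIPOL1, which lies beside FOXA1, was 6.73-fold higher (4.59 to 10.1), and SLC25A21, a mitochondrial carrier gene, had 4 and 123 counts, 45.2-fold higher (17.2 to 169). CLEC14A, known from endothelium and the nearest gene on the other side at 48.4 kb, had 4 counts and 0, under 1 CPM in both libraries.

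**Figure D3:**
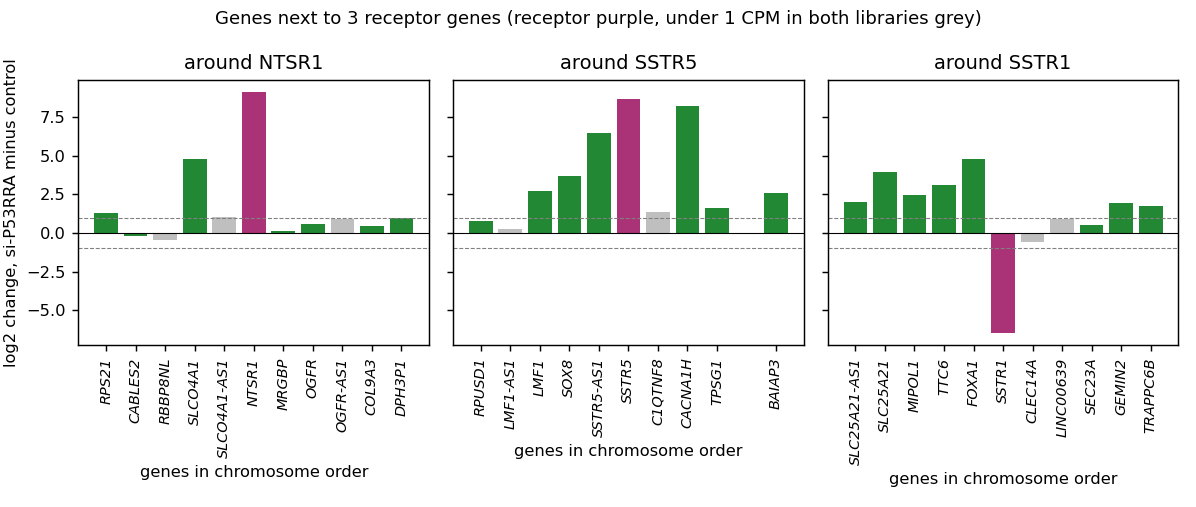
Log2 change (si-P53RRA minus control, 0.5 CPM added) of NTSR1, SSTR5 and SSTR1 (purple) and of the 5 nearest genes of the table on each side in chromosome order; grey bars are genes under 1 CPM in both libraries, dashed lines mark 2-fold and 1 gene around SSTR5 is not shown. SSTR5 stands in a run of higher genes from LMF1 to CACNA1H, and among the neighbours of NTSR1 the longest bar is SLCO4A1 at 4.78. The bar before SSTR1, at -6.46, is FOXA1 at 4.77, a gene 612 kb away.

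The genes with the most similar pair of values were found by the distance between log2(CPM + 0.5) values over the 2 libraries. For NTSR1 the 5 nearest were the keratin KRT19 (distance 0.87), the desmosomal plakophilin PKP1 (0.98), SSTR5 (1.02), NELL2, a secreted neural protein (1.10), and the cancer-testis gene CTAG2 (1.20). For SSTR5 they were CTAG2 (0.19), the link protein HAPLN1 (0.22), the mucin MUC5B (0.31), GLB1L2 (0.31) and the cancer-testis gene MAGEA6 (0.35), which has near-identical relatives that could share reads. With 2 libraries this likeness says only that the genes were near 0 in one library and abundant in the other. KRT19 is also on the list of epithelial markers.

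Other peptide hormone and neuropeptide receptors did not share one direction. Of 73 listed, 32 had a row and 13 had at least 1 CPM; 3 were higher and 4 lower by 2-fold or more, beside 19.7% and 23.2% of all genes, and the median log2 change was -0.25 beside -0.06 for all genes. GRPR, the receptor of gastrin-releasing peptide, had 2 and 130 counts, a ratio of 95.6 (25.9 to 798). NMUR2, a neuromedin U receptor, with 0 and 17 counts, and the endothelin receptor EDNRA, with 25 and 87 counts, were the others that were higher. AGTR1, the angiotensin II receptor, had 64 counts and 1, 43.5-fold lower (7.54 to 1745). The bradykinin receptor BDKRB2 had 60 and 3 counts, 13.6-fold lower (4.44 to 67.8), and QRFPR had 39 and 0, at least 8.84-fold lower. BDKRB1, with 25 counts and 0, was the fourth; it, NMUR2 and EDNRA are named after their values were seen. The 32 genes summed to 26.8 CPM in the control and 33.3 CPM in the si-P53RRA library.

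Genes of the pathway that NTSR1 uses, and relatives in the same gene families, were measured in both libraries. The counts of this and the next lists stand beside 19.7% higher, 23.2% lower and a median log2 change of -0.06 over all genes tested. Of 21 listed genes of Gq and phospholipase C signalling, 17 had at least 1 CPM; 6 were higher and 4 lower by 2-fold or more, and the median log2 change was 0.51. GNAQ, the alpha subunit of Gq, had 1274 and 138 counts and a log2 change of -2.60, while GNA11, the closely related alpha subunit of G11, had 2894 and 1731 counts and a log2 change of -0.18; both are named after their values were seen. PLCB4, a phospholipase C, had 445 and 36 counts, 8.40-fold lower (5.98 to 12.2), whereas PLCB3, also named after its values were seen, had 1489 and 1446 counts, a log2 change of 0.51. ITPR1, a calcium release channel of the endoplasmic reticulum, was 10.9-fold higher (8.71 to 13.9). PRKCZ, an atypical relative among the protein kinase C genes, had 3 and 387 counts, a ratio of 190 (64.4 to 924). PRKCH was 11.6-fold higher (8.08 to 17.3).

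For the Gi signalling used by somatostatin receptors, 13 of 19 listed genes had at least 1 CPM; 5 were higher and 3 lower by 2-fold or more, and the median log2 change was 0.40, against the same shares of all genes. GNAI2, a widely expressed Gi alpha subunit named after its values were seen, had 8826 and 5797 counts and a log2 change of -0.05. The adenylyl cyclase gene ADCY8 had 0 and 136 counts, at least 66.7-fold higher. KCNJ6, a subunit of the potassium channels that Gi-coupled receptors open, had 0 and 32 counts, at least 15.7-fold higher. GNAZ, a Gi-family alpha subunit, was 4.68-fold higher (3.57 to 6.20). PTPN6, the SHP-1 phosphatase linked to somatostatin receptor signalling, had 3 and 34 counts, a ratio of 16.7 (5.24 to 84.8). The related and more abundant phosphatase gene PTPN11 had 4424 and 1420 counts, 2.12-fold lower (1.99 to 2.25). The other lower genes were ADCY6, 2.16-fold (1.90 to 2.45), and ADCY2, with 22 counts and 0. These 3 are named after their values were seen.

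Genes that switch receptors off had 17 of 18 members with at least 1 CPM, of which 4 were at least 2-fold higher, 2 were lower and 11 were closer than that, with a median log2 change of 0.46; of all genes 42.9% were 2-fold apart. RGS2, which speeds the shut-off of Gq, had 157 and 1371 counts, 12.8-fold higher (10.9 to 15.2). RGS16 had 0 and 207 counts, at least 101-fold higher, and RGS20 had 188 and 17, 7.52-fold lower (4.57 to 13.2). ADRBK2, the receptor kinase also called GRK3, had 117 counts and 0, at least 26.5-fold lower. The arrestin genes ARRB1, with 301 and 1132 counts, and ARRB2, with 833 and 918, had log2 changes of 2.44 and 0.69 and are named after their values were seen.

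Peptide processing and breakdown genes went both ways. Of 13 listed, 11 had at least 1 CPM; 1 was higher and 4 lower by 2-fold or more, and the median log2 change was -0.39, where 19.7% of all genes were higher and 23.2% lower. MME, neprilysin, a surface peptidase that cleaves neurotensin and other peptides, had 2578 counts in the control and none in the other library, a decrease of at least 584-fold. THOP1 and NLN, further peptidases that cleave neurotensin, had log2 changes of 0.97 and -0.39; they are named after their values were seen. PCSK1, a prohormone convertase, had 30 counts and 0, at least 6.80-fold lower, and FURIN was 5.96-fold lower (5.19 to 6.87). DPP4, a peptidase of the cell surface, was 2.45-fold higher (2.25 to 2.66).

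NTSR1 is known as a target of beta-catenin and TCF factors in colon tumours, so a list of Wnt and TCF targets was read beside it. Of 10 listed genes, 7 had at least 1 CPM; 3 were higher and 1 lower by 2-fold or more, and the median log2 change was 0.93, beside 19.7% of all genes higher and 23.2% lower. RNF43, a Wnt receptor ubiquitin ligase, had 0 and 396 counts, at least 194-fold higher, and the stem cell receptor LGR5 had 1 and 147, a ratio of 216 (38.2 to 8597). SP5 had 2 and 33 counts, a ratio of 24.3 (6.21 to 209). LEF1 had 60 and 3 counts, 13.6-fold lower (4.44 to 67.8). AXIN2, a widely used readout of the pathway, named after its values were seen, had 35 and 12 counts and a log2 change of -0.74.

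Both receptor families are known from neuroendocrine tumours, so neuroendocrine markers were read in the same libraries. Of 10 listed, 6 had a row and 4 had at least 1 CPM, 1 higher by 2-fold and 1 lower, too few to read against the shares of all genes, and the median log2 change was -0.76. SYT1, a synaptic vesicle gene, had 28 and 163 counts, 8.56-fold higher (5.71 to 13.3), and SCG2, a granule protein gene, had 117 and 0, at least 26.5-fold lower. CHGB, with 4 counts and 0, and NCAM1, with 3 and 0, were under 1 CPM in both libraries, so no difference is read from them. The list summed to 82.5 CPM in the control and 52.4 CPM in the si-P53RRA library, mostly from ENO2, at 72.0 and 37.3 CPM. CHGB, NCAM1 and ENO2 are named after their values were seen.

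**Figure D4:**
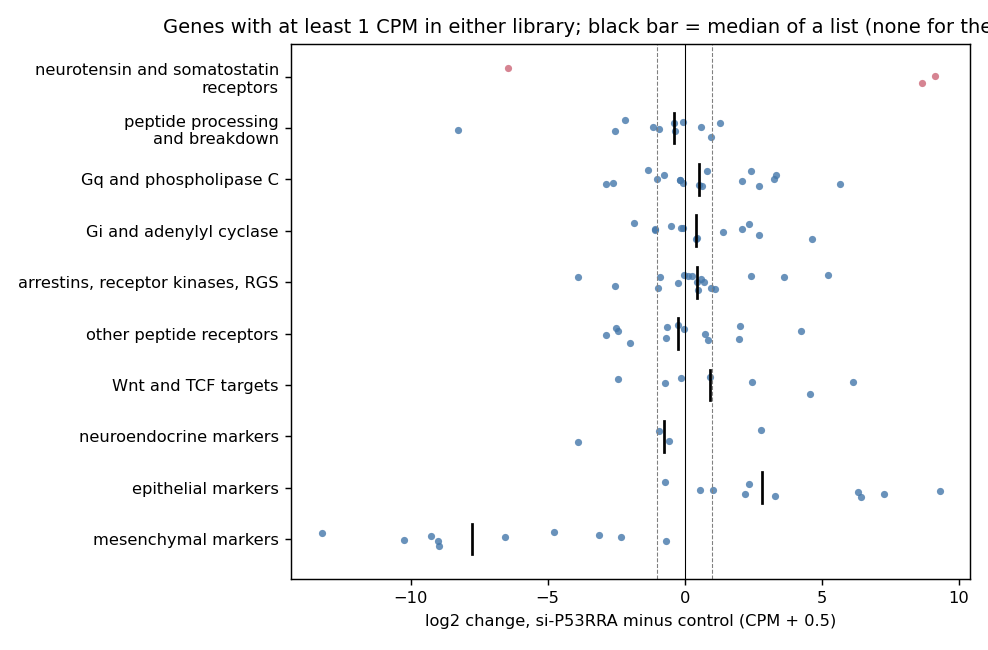
Log2 change (si-P53RRA minus control, 0.5 CPM added) of each gene with at least 1 CPM in either library, by list; each point is a gene, black bars are list medians and dashed lines mark 2-fold. The receptors NTSR1, SSTR5 and SSTR1 lie at 9.13, 8.65 and -6.46, the signalling lists have medians from 0.40 to 0.51, and the epithelial and mesenchymal markers have medians of 2.82 and -7.75.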

How the data were processed

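The deposited file held whole-number counts per gene in 2 columns; the values, whole numbers with unequal column totals, showed no normalization. Reads were mapped to hg19, per the submitters' processing notes; aligner, counter and annotation: not given in the sources used here. The si-P53RRA column was matched to the sample of that title and the si-NC column to the remaining, untreated label. Nothing says whether a strand-keeping kit was used. Library sizes were 16030207 and 11942362 counts.

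Scaling used TMM factors (edgeR 4.0.16, R 4.3.3; factors 1.05 and 0.955), and the log2 change was computed on CPM + 0.5 for the 13532 genes that reached 1 CPM in one library or both. Counts had exact Poisson and ratios exact conditional binomial 95% intervals (scipy 1.17.1). Folds with intervals are ratios of CPM, while genes counted as 2-fold apart had a log2 change of 1 or more in size. A gene with few counts can therefore pass 2-fold by its ratio and not be counted. For a gene at 0, "at least" is set by 3 counts (0.179 CPM in the control and 0.263 CPM in the si-P53RRA library). The 95% interval of 0 counts reaches 3.69. No molecular identifiers are recorded, so these intervals and floors describe counting error alone.

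Gene order and transcript lengths came from GENCODE 29, matched by symbol for 15954 rows (92.5%), a newer build than the authors used, and promoters from RefSeq on GRCh38.p14. The members and 16 gene lists were chosen with earlier results of these data known. Named genes were the members, the ligands and related receptors, the neighbours and nearest genes, and up to 4 genes per list ranked by the size of their log2 change, if that was 1 or more, or else the top 2; exceptions are stated, and a few genes under this rule are not reported. The planned comparison of receptor proteins was not made. The procedure was run on simulated counts that had counting error only and the scaled library sizes of the data. That run could test neither the scaling nor variation between libraries. Alternatives tried were scaling by total counts, by upper quartile or by median ratio (DESeq2 1.42.0), other filters, pseudocounts and sizes of change.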

Additional observations from a re-analysis of the deposited data

How the results depend on the processing

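The log2 changes of NTSR1 and SSTR5 depended on the pseudocount, since both genes are at or near 0 in the control library. With 0.1 CPM added they were 10.41 and 10.97, and with 2 CPM added 7.46 and 6.66, so that the order of the pair turned at the lower pseudocount. Under the 3 other scalings they stayed within the counting interval of the reported values. The filters do not enter these 2 values, so the other filters could not change them. The count of receptor genes at least 2-fold apart was 3 under all 9 alternatives. With a 4-fold size, 1129 genes were higher and 1400 lower, in place of 2667 and 3135; the other 8 alternatives kept both counts within 1.5 times. Scaling on total counts moved the median log2 change of all genes from -0.06 to -0.18. The level of SSTR5 per kilobase was 76.2 CPM with the genome span from its RefSeq start to the gene end, a choice made after the data were seen. With genes at 0 in a library set at the bound that 3 counts give, the list medians of the epithelial and mesenchymal markers were 3.48 and -8.20 in place of 2.82 and -7.75, and the other printed medians of the signalling, processing, peptide receptor, Wnt and neuroendocrine lists kept their values. No paired analysis was possible because each group had 1 library, and for the same reason no replicate could be left out. Depth limits SSTR2, CORT and the control values of NTSR1 and SSTR5, which rest on 11 counts or fewer.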

Other observations

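Markers of further cell types were read in the same libraries; those named outside the naming rule, TUBB3, CDH17 and PAX6, were chosen after their values were seen. Of 10 intestinal epithelial markers, 6 had a row and summed to 0.358 CPM in the control and 51.2 CPM in the si-P53RRA library, nearly all from the trefoil factor TFF3, with 0 and 541 counts; GPA33 had 0 and 33, and CDH17 6 and 0. Of 9 pancreatic endocrine markers, 2 had a row, PAX6 with 7 and 9 counts and ISL1 with 32 and 47. Of 10 neuronal markers, 8 had a row and summed to 185 CPM in the control and 503 CPM in the si-P53RRA library, mostly from NEFL and TUBB3. TUBB3 had 2337 and 1702 counts, the neurofilament gene NEFL was 15.9-fold higher (14.3 to 17.7) and the microtubule gene MAP2 25.9-fold lower (13.5 to 57.2). Of 8 luminal prostate markers, 4 had a row. Among them the solute carrier gene SLC45A3 was 9.68-fold higher (7.42 to 12.8).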
